A study of Caenorhabditis elegans with 12 samples.

Results

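The ribosomal protein genes of C. elegans are described here by the H3K9me3 CUT&Tag counts over their exons in hrde-2, hrde-1 and wild-type germline nuclei. They were chosen by gene identifier as the rpl block (WBGene00004412 to WBGene00004456) and the rps block (WBGene00004469 to WBGene00004499), a rule that uses no measured value. This gave 76 genes (45 rpl and 31 rps) of the 46760 genes in the deposited tables, and all 76 had enough counts to be tested. The animals were 1-day-old adults raised at 20 °C, carrying hrde-2/enri-3(qe20) or hrde-1(tm1200), or N2 as wild-type with neither allele. Nuclei were released from lightly crosslinked whole worms by douncing and straining, a procedure meant to yield germline nuclei. Each genotype had 3 H3K9me3 libraries and 1 library named IgG, in which the secondary antibody was used without a primary one.

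The rpl genes are named for proteins of the large (60S) ribosomal subunit and the rps genes for those of the small (40S) subunit. All growing cells need ribosomal proteins, and in most eukaryotes their genes rank among the most highly transcribed ones. H3K9me3 is a mark of silenced chromatin. HRDE-1 is a nuclear Argonaute of the C. elegans germline that brings this mark to genes matched by its small RNAs, and HRDE-2 is a germ granule protein that acts in loading those small RNAs. The libraries hold DNA and no RNA, so how strongly the genes were transcribed was not measured. The antibody also bound H3K27me3 and H4K20me3 in the study's own specificity assay, and counts named H3K9me3 below can include fragments of these marks.

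The H3K9me3 libraries held 1470699 to 8719542 fragments assigned to exons. The smallest was wild-type replicate 2 and the others held 6254908 or more. The IgG libraries were far smaller, with 13950 counts for hrde-2, 37617 for hrde-1 and 233980 for wild-type. Ribosomal RNA genes took 13.2% to 24.6% of the H3K9me3 counts and 23.5% to 35.1% of the IgG counts. Levels are given as counts per 1000000 assigned counts (CPM) per kb of exon, so that genes of different length can be compared. The gene hrde-1 had 33.9, 33.3 and 34.8 CPM per kb in hrde-2 libraries, 24.5, 25.0 and 26.8 in hrde-1 and 23.5, 24.8 and 24.5 in wild-type, so that hrde-2 was above both without overlap and hrde-1 overlapped with wild-type. The gene hrde-2 had 22.2, 22.1 and 20.0 in hrde-2 libraries, 15.1, 20.9 and 17.3 in hrde-1 and 21.4, 16.5 and 16.6 in wild-type, and hrde-2 overlapped with both. Neither mutated gene was thus set apart from wild-type in its own mutant, and these exon counts do not check the labels. The 6 germline marker genes together had 27.6 to 30.6 CPM per kb in the hrde-2 libraries, 21.1 to 25.7 in hrde-1 and 20.4 to 24.1 in wild-type, so that hrde-2 was above both without overlap. For comparison, the 46628 other nuclear genes together had 25.2 to 26.4 in hrde-2, 23.3 to 25.8 in hrde-1 and 22.7 to 25.2 in wild-type. Among the 6 marker genes, nos-2 had nearly equal means in hrde-2 and wild-type (12.8 and 12.6), and the others had higher means in hrde-2. Over all 9 libraries the 3 muscle marker genes had 47.4 to 58.9, those of intestine 23.0 to 27.5, of neurons 14.3 to 18.7 and of epidermis 37.6 to 63.7. None of these marker genes was called by edgeR between genotypes, against 0.443% to 0.760% of all genes tested. Their part in the results was not tested. As chromatin counts they do not say which tissue the nuclei came from.

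Whether a count can be credited to one gene depends on its sequence, and 4 members share exon sequence with other places in the genome. Every 50-base word of the exons was looked up in the RefSeq WBcel235 genome, which has the chromosome sequences that the WS258 coordinates of the files refer to. In 72 of the 76 genes every word was unique. In rpl-37, 56.8% of words were unique, nearly all others matching W01D2.1, a protein-coding gene on chromosome II. In rpl-2, 53.1% were unique, with matches in a pseudogene and in B0250.7 on the same chromosome, and in rpl-7A 64.1% were unique, with matches in a pseudogene on chromosome X. In rps-26, 18 words were shared with C03H5.10, a non-coding RNA gene. Counts of these 4 genes are uncertain to that extent. The exons below show a member whose words are all unique (rps-25, the highest) and 3 that share words with other places, the lowest member rpl-37 among them. Capitals mark bases that lie in a 50-base word found again elsewhere in the genome. They run 5′ to 3′ on the coding strand (RefSeq, WBcel235). Shown are the longest coding exon of rps-25 at chrIV:5947137-5947316 on the minus strand, that of rpl-37 at chrIII:3528642-3528914 on the plus strand, and the first 300 bases of the longest coding exons of rpl-2 at chrV:20480368-20480667 on the plus strand (389 bases in full) and of rpl-7A at chrIV:4389451-4389750 on the minus strand (352 bases in full).
rps-25: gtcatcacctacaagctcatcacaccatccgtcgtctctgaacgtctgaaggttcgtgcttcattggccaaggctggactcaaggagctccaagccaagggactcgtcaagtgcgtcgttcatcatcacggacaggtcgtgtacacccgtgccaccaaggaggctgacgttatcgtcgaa
rpl-37: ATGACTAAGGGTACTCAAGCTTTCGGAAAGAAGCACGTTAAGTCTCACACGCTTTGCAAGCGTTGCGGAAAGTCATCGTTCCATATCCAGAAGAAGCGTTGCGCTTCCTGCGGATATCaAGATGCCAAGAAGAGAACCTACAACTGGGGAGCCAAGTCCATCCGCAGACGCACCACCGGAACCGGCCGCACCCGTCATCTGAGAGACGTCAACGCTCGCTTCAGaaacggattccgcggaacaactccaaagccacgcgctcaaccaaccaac
rpl-2: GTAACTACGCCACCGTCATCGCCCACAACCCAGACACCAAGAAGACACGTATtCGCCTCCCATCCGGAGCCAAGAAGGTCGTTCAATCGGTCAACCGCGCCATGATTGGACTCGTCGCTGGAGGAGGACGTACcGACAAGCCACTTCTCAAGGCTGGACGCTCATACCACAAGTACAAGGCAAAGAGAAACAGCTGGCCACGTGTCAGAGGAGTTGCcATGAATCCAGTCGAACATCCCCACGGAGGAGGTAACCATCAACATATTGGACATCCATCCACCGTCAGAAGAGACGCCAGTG
rpl-7A: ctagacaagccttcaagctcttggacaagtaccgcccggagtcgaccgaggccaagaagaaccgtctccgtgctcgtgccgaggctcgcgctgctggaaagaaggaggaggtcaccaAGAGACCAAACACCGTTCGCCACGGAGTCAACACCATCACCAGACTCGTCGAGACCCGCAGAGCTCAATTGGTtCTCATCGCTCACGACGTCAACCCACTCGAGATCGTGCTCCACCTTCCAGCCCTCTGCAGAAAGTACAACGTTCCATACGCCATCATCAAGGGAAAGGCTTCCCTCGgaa
Of the bases shown, rps-25 held 0 of 180 in repeated words, rpl-37 held 223 of 273, rpl-2 297 of 300 and rpl-7A 179 of 300. In addition, 19 members had exon bases that overlap exons of another gene, 110 bases being the most (rps-20 with cel-mir-354), and 5 members had 50 or more such bases. Strand was not used in counting, so fragments there cannot be told apart.

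The 76 genes lay on all chromosomes, with 21 on I, 10 on II, 18 on III, 17 on IV, 8 on V and 2 on X. Their summed exon length ran from 236 to 1458 bases (median 550.5), in 1 to 6 exon blocks. Their exons were GC-rich, between 42.3% and 53.8% with a median of 48.8%, against a median of 40.2% for the 14980 other nuclear genes within the same length range.

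Ribosomal protein genes had more H3K9me3 counts per kb than other nuclear genes of their length range in all 9 libraries. Their median was 37.2, 40.5 and 41.5 CPM per kb in the hrde-2 libraries, 34.6, 38.2 and 38.6 in the hrde-1 libraries and 38.6, 35.0 and 33.6 in the wild-type libraries. The other nuclear genes of the length range were longer, with a median of 884 bases of exon against 550.5. Their medians in CPM per kb were 19.2 to 20.9 in hrde-2, 17.7 to 20.2 in hrde-1 and 16.3 to 20.8 in wild-type. The lowest median of the ribosomal protein genes was therefore above the highest median of the others. Summed over the 76 genes, the members took 2017 ± 60.7 CPM in hrde-2, 1858 ± 74.5 in hrde-1 and 1838 ± 86.2 in wild-type (SD, n = 3 each), and all hrde-2 libraries (1947 to 2059) were above the wild-type ones (1744 to 1914). With ribosomal RNA and mitochondrial genes left out of the totals, the shares were 2420 ± 79.9 CPM in hrde-2, 2358 ± 135 in hrde-1 and 2330 ± 41.4 in wild-type, and the libraries of the genotypes overlapped.

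**Figure D1:**
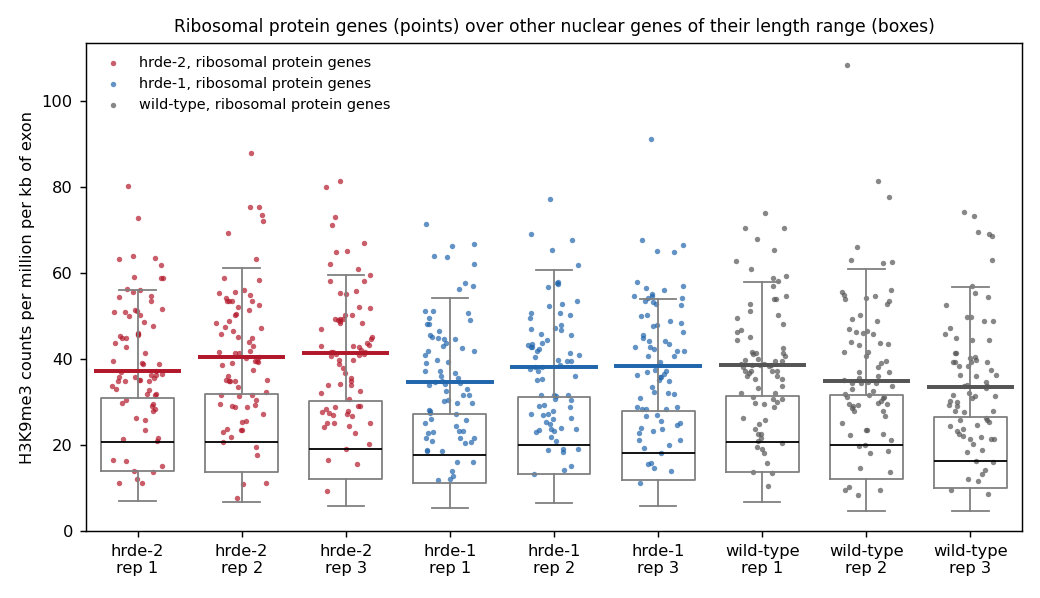
H3K9me3 CPM per kb of exon in each library (x axis, 3 replicates per genotype). Points are the 76 ribosomal protein genes and thick coloured lines their median, which lies between 33.6 and 41.5. Boxes show the 14980 other nuclear genes of the same length range (quartiles and median, whiskers at the 5th and 95th percentiles), whose medians lie between 16.3 and 20.9.

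Each member was set beside the other nuclear genes whose exon length was within 10% of its own (665 to 3724 genes per member). The median over members of the ratio to the median of these genes was 1.97 in hrde-2, 1.95 in hrde-1 and 1.80 in wild-type. The member's rank among them had a median at the 85.3rd percentile in hrde-2, the 83.9th in hrde-1 and the 80.9th in wild-type. Over the 9 libraries together, 69 of 76 members were above the median of genes of similar length, 50 were above the 75th percentile and 19 above the 90th. The median ratio was 1.95 over the 45 rpl genes and 1.90 over the 31 rps genes.

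The median ratio was below 1 when the genes compared also had similar GC content. Across the 14980 other genes the count per kb went with GC content (Spearman's rho 0.61, a description over genes that share libraries), and among the 76 members the same measure was 0.44. For this comparison, chosen after seeing the data, the genes of similar length were kept only where their exon GC content was within 2 percentage points of the member's, which left 14 or more genes per member. The median ratio was then 0.945 in hrde-2, 0.915 in hrde-1 and 0.859 in wild-type. Over the 9 libraries, 28 members were above the median of such genes and 47 were below it. The genes named rps-25, rpl-11.1 and rpl-27 stayed above, at ratios of 2.02, 1.92 and 1.79, and rpl-37 was lowest at 0.368. The part of GC content in these levels was not tested beyond this comparison.

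**Figure D2:**
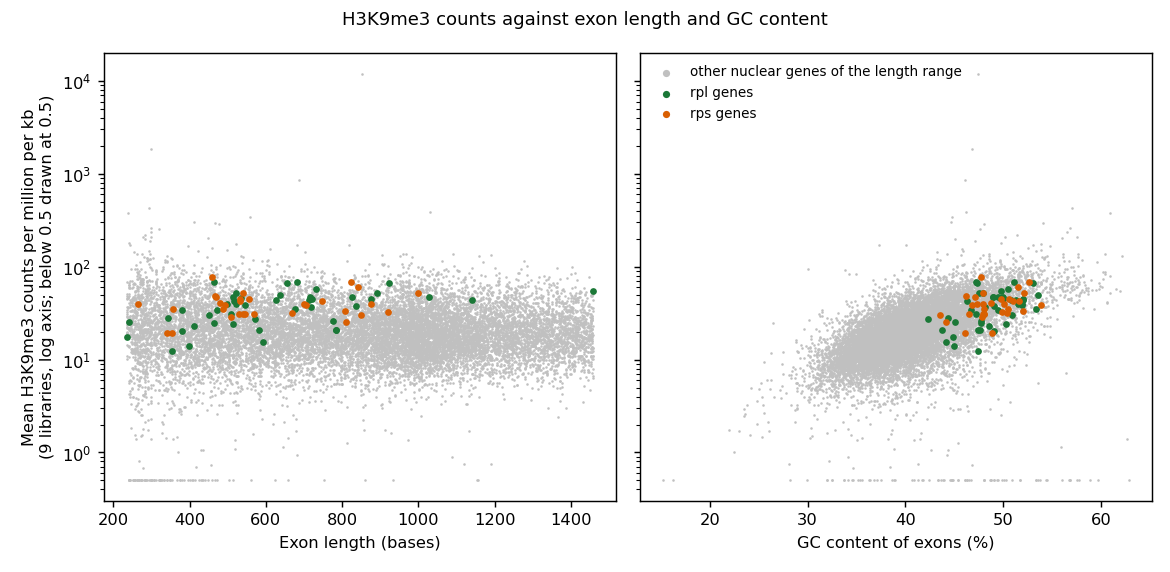
Mean H3K9me3 CPM per kb over the 9 libraries (log y axis) against exon length in bases (left) and GC content of the exons in percent (right). Green points are rpl genes, orange points rps genes and grey points the 14980 other nuclear genes of the length range. The members sit in the upper part of the grey points at a given length, and within the grey points at a given GC content.

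Chromosomal position was set beside the level as well, each chromosome being divided into 3 equal parts. On the autosomes, 33 members in the middle part had a median of 34.6 CPM per kb, against 15.6 for other genes of the length range there. In the outer parts 41 members had a median of 39.2, against 21.3 for other genes, so the members' medians were higher in both. By chromosome the medians of the members ran from 31.8 on III to 48.5 for the pair on X, rpl-11.2 and rpl-25.1. Against genes of similar length in the same part of the same chromosome, the median ratio was 2.10 in hrde-2, 2.12 in hrde-1 and 1.98 in wild-type. Longer members had somewhat higher levels (Spearman's rho with exon length 0.38 over 76 genes, against -0.05 over the other genes).

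The members covered a 6.31-fold range of mean level over the 9 libraries. The highest was rps-25, which codes for a small-subunit protein known in yeast and mammals for initiation at certain viral RNAs (WBGene00004494, WS258 chrIV:5947036-5947607). It had, in CPM per kb, 72.8, 88.0 and 73.2 in hrde-2, 71.5, 77.3 and 91.3 in hrde-1 and 74.1, 81.5 and 69.7 in wild-type, and the genotypes overlapped. Next among the rps genes were rps-6, whose protein is the classical target of S6 kinase in mammals, and rps-4. The gene rps-6 had 73.0 ± 8.63 in hrde-2, 63.6 ± 1.59 in hrde-1 and 67.4 ± 5.42 in wild-type (CPM per kb, SD, n = 3 each). The gene rps-4 had 66.1 ± 4.44 in hrde-2, 59.5 ± 6.50 in hrde-1 and 55.2 ± 5.96 in wild-type (CPM per kb, SD, n = 3 each). Among genes of similar length, rps-6 ranked at percentile 98.2 and rps-4 at percentile 97.4.

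The highest rpl genes were rpl-27, rpl-31 and rpl-11.1. Their proteins all belong to the large subunit, and in yeast L31 lies by the exit of the tunnel through which the new protein leaves. The gene rpl-27 is described with the genotype comparisons below. CPM per kb were 64.5 ± 7.94 in hrde-2, 66.2 ± 0.603 in hrde-1 and 72.3 ± 4.72 in wild-type for rpl-31 (SD, n = 3 each). The intervals of 1 SD overlapped between hrde-2 and both other genotypes, while all hrde-1 libraries (65.5 to 66.6) were below all wild-type libraries (68.7 to 77.7) in CPM per kb. On the scale of the test the log2 fold change of rpl-31 in hrde-1 against wild-type was -0.12 ± 0.13 (SE, edgeR adjusted p = 0.805).

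At the low end stood rpl-37, rpl-36.A and rpl-33 among the rpl genes. The gene rpl-37 (WBGene00004451, WS258 chrIII:3528547-3528968) had, in CPM per kb, 16.7, 7.69 and 9.31 in hrde-2, 12.3, 15.3 and 15.9 in hrde-1 and 10.7, 9.60 and 13.3 in wild-type. It ranked at the 26.0th percentile of genes of similar length, the lowest of all members. Its copy W01D2.1, which holds most of the bases marked in the sequence above, was low too, at 19.4 ± 4.73 in hrde-2, 13.3 ± 1.00 in hrde-1 and 13.5 ± 6.57 in wild-type (CPM per kb, SD, n = 3 each). The gene rpl-36.A had 15.9 ± 8.10 in hrde-2, 14.2 ± 1.42 in hrde-1 and 11.5 ± 2.72 in wild-type, and rpl-33 had 17.6 ± 4.90 in hrde-2, 15.7 ± 2.89 in hrde-1 and 13.3 ± 2.97 in wild-type (CPM per kb, SD, n = 3 each). Of these, rpl-36.A has unique words throughout, and 51 exon bases of rpl-33 overlap another gene.

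Among the rps genes the lowest were rps-21, rps-29 and rps-22, all of them coding for small-subunit proteins. The gene rps-21 had 17.0 ± 4.23 in hrde-2, 23.1 ± 1.87 in hrde-1 and 18.2 ± 3.86 in wild-type (CPM per kb, SD, n = 3 each). The gene rps-29 had 22.4 ± 11.4 in hrde-2, 21.2 ± 2.73 in hrde-1 and 14.7 ± 4.58 in wild-type, and rps-22 had 28.3 ± 3.11 in hrde-2, 22.7 ± 1.40 in hrde-1 and 24.4 ± 5.95 in wild-type. Among genes of similar length they ranked at percentiles 46.9 for rps-21, 45.8 for rps-29 and 65.8 for rps-22.

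**Figure D3:**
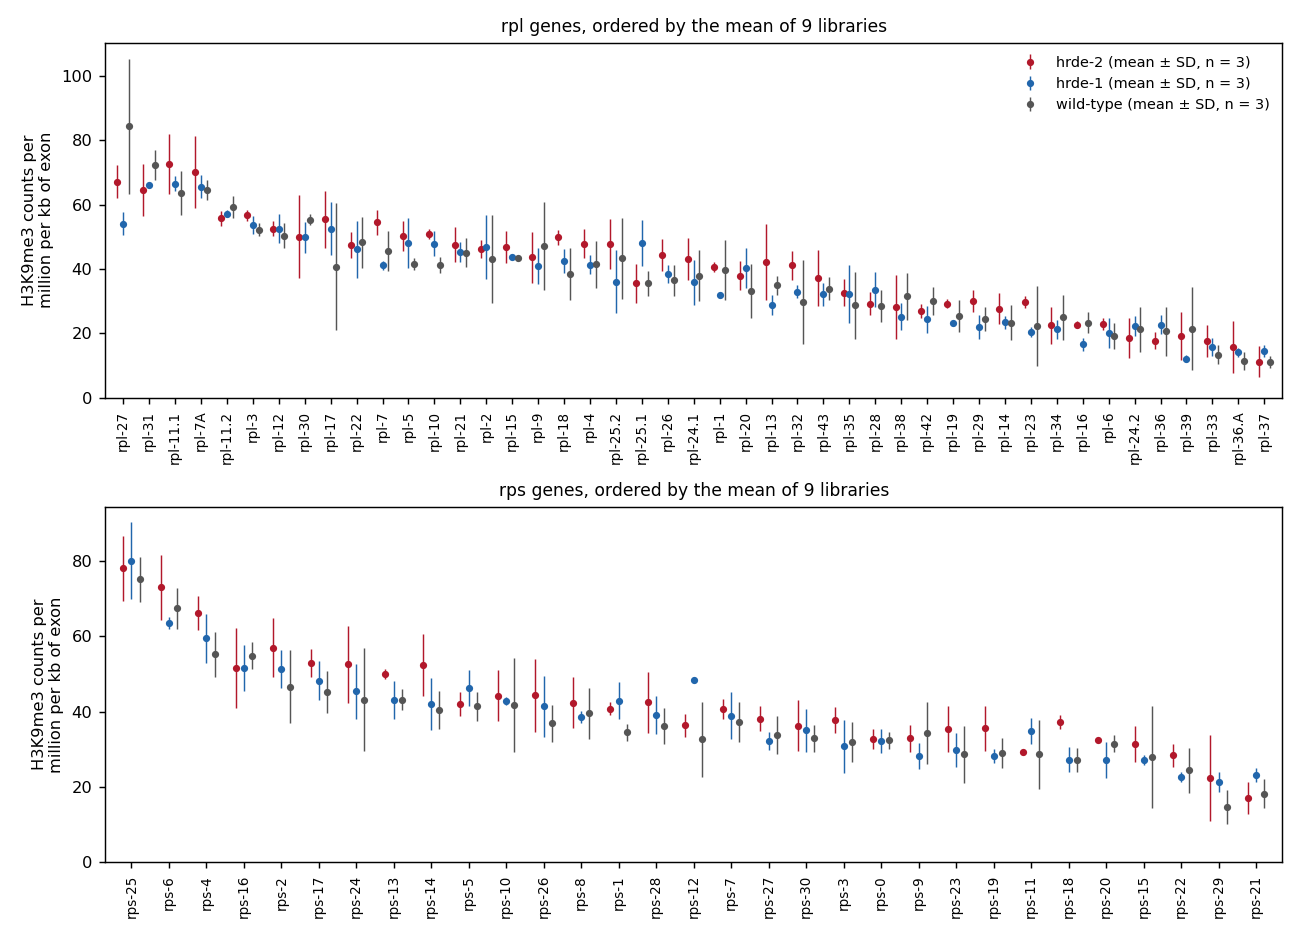
Mean H3K9me3 CPM per kb of exon of each ribosomal protein gene by genotype (points, with SD as bars, n = 3 libraries), rpl genes above and rps genes below, each in order of the mean over 9 libraries. The genes run from 77.7 for rps-25 to 12.3 for rpl-37.

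Several members share a number in their symbol. One such pair is rpl-11.1 and rpl-11.2, whose protein in yeast and mammals binds the 5S ribosomal RNA. Their coding sequences are 588 bases each and 84.2% identical, and every 50-base word of their exons is unique in the genome. The exons below are the second coding exons (RefSeq, WBcel235), rpl-11.1 at chrV:3585658-3585873 on the minus strand and rpl-11.2 at chrX:2242214-2242429 on the minus strand. They are shown because the pair codes for corresponding parts of the protein from an autosome and from chromosome X, and capitals mark the 22 of 216 bases that differ.
rpl-11.1: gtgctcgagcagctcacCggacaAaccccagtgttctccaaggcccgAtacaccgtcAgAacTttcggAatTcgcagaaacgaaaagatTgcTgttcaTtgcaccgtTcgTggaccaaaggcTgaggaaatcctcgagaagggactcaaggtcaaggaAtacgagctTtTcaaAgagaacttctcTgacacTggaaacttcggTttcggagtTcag
rpl-11.2: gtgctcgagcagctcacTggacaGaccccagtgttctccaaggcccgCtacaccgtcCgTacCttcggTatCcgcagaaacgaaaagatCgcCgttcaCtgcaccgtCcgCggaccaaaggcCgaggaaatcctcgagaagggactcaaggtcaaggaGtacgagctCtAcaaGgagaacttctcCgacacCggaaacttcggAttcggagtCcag
The gene rpl-11.1 had, in CPM per kb, 80.3, 75.4 and 62.1 in hrde-2, 63.8, 67.7 and 67.9 in hrde-1 and 65.4, 56.1 and 69.2 in wild-type. On chromosome X, rpl-11.2 had 55.6, 53.5 and 58.2 in hrde-2, 57.8, 57.7 and 56.1 in hrde-1 and 59.4, 62.3 and 55.5 in wild-type. The autosomal copy was higher in 8 of the 9 libraries, wild-type replicate 2 being the exception.

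In 2 further pairs the order was the same in all 9 libraries, and in 2 it was not. These pairs were taken by the number in the symbol alone. Their coding sequences were not compared, and a shared number does not make 2 genes copies of each other. The proteins of rpl-25.1 and rpl-25.2 correspond to yeast L25, which lies at the exit of the tunnel. The X-linked rpl-25.1 had 35.5 ± 6.05 in hrde-2, 48.1 ± 7.17 in hrde-1 and 35.6 ± 3.90 in wild-type, and rpl-25.2 on chromosome I had 47.7 ± 7.76 in hrde-2, 36.1 ± 9.76 in hrde-1 and 43.3 ± 12.6 in wild-type (CPM per kb, SD, n = 3 each). The mean of rpl-25.1 was thus the higher one in hrde-1 and the lower one in hrde-2 and wild-type. The gene rpl-24.1 had 43.0 ± 6.51 in hrde-2, 35.9 ± 6.98 in hrde-1 and 37.9 ± 7.95 in wild-type, above rpl-24.2 in all 9 libraries, which had 18.6 ± 6.16 in hrde-2, 22.3 ± 3.14 in hrde-1 and 21.2 ± 6.93 in wild-type. The gene rpl-7A had 70.0 ± 11.197 in hrde-2, 65.5 ± 3.58 in hrde-1 and 64.6 ± 3.07 in wild-type, above rpl-7 in all 9 libraries, which had 54.5 ± 3.76 in hrde-2, 41.1 ± 1.32 in hrde-1 and 45.6 ± 6.13 in wild-type. Of these, rpl-7A shares words with a pseudogene. The gene rpl-36 had 17.7 ± 2.55 in hrde-2, 22.7 ± 3.01 in hrde-1 and 20.6 ± 7.63 in wild-type, and was above rpl-36.A in 7 of the 9 libraries.

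The study asked whether HRDE-1 places the mark on genes of the CSR class of small RNAs when HRDE-2 is missing. It reported a significant rise of the mark over its list of CSR targets in hrde-2. The ribosomal protein genes are read here from the same libraries, gene by gene. Which of them are CSR targets was not used, so the counts below do not bear on that result. No ribosomal protein gene passed the test in hrde-2 against wild-type (edgeR quasi-likelihood test, Benjamini-Hochberg adjusted p over 28691 genes), where 0.495% of all genes tested did, and DESeq2 called 0 members as well. Fold changes here are scaled by TMM, unlike the CPM. The median log2 fold change of the 76 genes was 0.06, against 0.00 over all genes, and 45 were above 0 and 31 below. The values ran from -0.36 to 0.56 with a median standard error of 0.18, and in 73 of the 76 genes the 95% interval lay between -1 and 1. An unadjusted p under 0.05 was reached by 2 members, rpl-27 and rpl-23, against 9.30% of all genes. With scaling by total counts the median of all genes in this comparison moved by 0.10, and that of the members was 0.16.

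The genes furthest from 0 in hrde-2 did not pass. The protein of rpl-23 in yeast lies at the face of the large subunit that meets the small one. This gene had 31.8, 29.6 and 27.8 CPM per kb in hrde-2, against 22.7, 34.5 and 9.61 in wild-type, and the groups overlapped (log2 fold change 0.56 ± 0.27 SE, edgeR adjusted p = 0.517). The wild-type values were widely spread, and without wild-type replicate 3 the log2 fold change was 0.17. At rps-29 and rps-18 the log2 fold changes were 0.37 ± 0.34 and 0.37 ± 0.20 (SE, edgeR adjusted p = 0.804 and 0.592). On the negative side stood rpl-27, rps-21 and rpl-30 with -0.36 ± 0.16, -0.29 ± 0.31 and -0.26 ± 0.18 (SE, edgeR adjusted p = 0.461, 0.841 and 0.702). When single libraries were left out, the log2 fold change ran from -0.083 to 0.69 for rps-29, 0.20 to 0.54 for rps-18, -0.52 to -0.24 for rpl-27, -0.40 to -0.044 for rps-21 and -0.37 to -0.054 for rpl-30. The values nearest 0 came without wild-type replicate 3 for rps-21, without hrde-2 replicate 1 for rpl-30 and without hrde-2 replicate 3 for rps-29. On the scale of the test, 3 members (rpl-10, rps-4 and rps-18) had all hrde-2 libraries above all wild-type libraries, against 7.13% of all genes, and 1 (rpl-42) had all below, against 6.47%. The genes rpl-10 and rpl-42 are named here after their values were seen.

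In hrde-1 against wild-type, no member passed the test either, while 0.760% of all genes did. The median log2 fold change of the members was 0.01, against 0.01 over all genes, and 41 members were above 0 and 35 below. The values ran from -0.58 to 0.67, and in 72 of the 76 genes the 95% interval lay between -1 and 1. An unadjusted p under 0.05 was reached by 3 members (rpl-27, rps-12 and rpl-16), against 11.0% of all genes, and DESeq2 called 1 of them, rpl-27. All hrde-1 libraries were above all wild-type libraries at 1 member, rps-12, against 8.13% of all genes. On the scale of the test as well, they were below at 4 members (rpl-13, rpl-16, rpl-27 and rpl-42, the last named after its values were seen), against 7.50%.

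In the genotype comparisons rpl-27 came nearest to a call. It had 51.3, 58.0 and 52.6 CPM per kb in hrde-1, against 70.5, 108 and 74.1 in wild-type, with no overlap (log2 fold change -0.58 ± 0.16 SE, edgeR adjusted p = 0.0657). In hrde-2 it had 62.0, 72.2 and 67.0, which overlapped with wild-type. The value of 108 came from wild-type replicate 2, the smallest library. Over the alternatives its adjusted p in hrde-1 ran from 0.0214 (without wild-type replicate 1, log2 fold change -0.75) to 0.274, and it was 0.0469 with DESeq2 and 0.0435 with the replicate number as a block. Without wild-type replicate 2 the log2 fold change was -0.47 (edgeR adjusted p = 0.193).

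The gene rps-12, whose protein in Drosophila is known from competition between cells, was the furthest in the other direction. It had 48.2, 47.9 and 48.952 CPM per kb in hrde-1, against 25.9, 44.0 and 27.9 in wild-type (log2 fold change 0.67 ± 0.19 SE, edgeR adjusted p = 0.0918). The wild-type library nearest to hrde-1 was replicate 2, and without it the gene passed (0.80, edgeR adjusted p = 0.0300), the adjusted p over all alternatives running from 0.0300 to 0.379. In hrde-2 it had 35.3, 39.7 and 34.0, within the wild-type range. The gene rpl-16 had 16.2, 18.8 and 14.7 CPM per kb in hrde-1, against 26.3, 19.9 and 23.8 in wild-type (log2 fold change -0.56 ± 0.19 SE, edgeR adjusted p = 0.216). The other members at the ends of the range were rpl-39 at -0.57 ± 0.46, rpl-25.1 at 0.38 ± 0.19 and rps-29 at 0.38 ± 0.34 (log2 fold change, SE, edgeR adjusted p = 0.716, 0.453 and 0.751). The protein of rpl-39 lines the exit tunnel in yeast, and its gene is the shortest member, with 236 bases of exon.

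**Figure D4:**
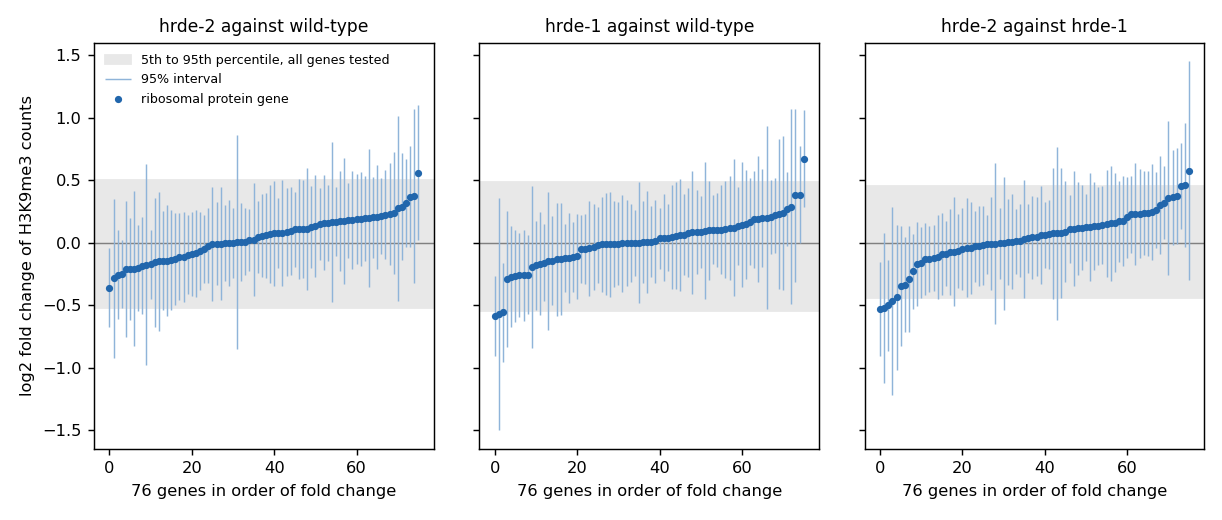
log2 fold changes of H3K9me3 counts (y axis) of the 76 ribosomal protein genes, ordered within each comparison, with 95% intervals from the edgeR fit. The grey band holds the 5th to 95th percentile of all genes tested. No member passed the adjusted threshold in any of the 3 comparisons, and the points lie between -0.58 and 0.67.

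Between the mutants, hrde-2 against hrde-1 gave no call among the members with edgeR or DESeq2, with 0.443% of all genes called by edgeR. This comparison shares its libraries with those above. The members' median log2 fold change was 0.05, against 0.01 over all genes, and 72 of 76 intervals lay between -1 and 1. An unadjusted p under 0.05 was reached by 4 members (rpl-7, rpl-13, rpl-25.1 and rps-12), against 6.44% of all genes. On the scale of the test, at 9 of 76 members (11.8%) all hrde-2 libraries were above all hrde-1 libraries, against 7.12% of all genes. Whether this is more than the share over all genes was not tested. At 5 members, or 6.58% (rpl-36, rps-5, rps-11, rps-12 and rps-21), all hrde-2 libraries were below, against 6.86%. Of these, rps-5 and rps-11 are named after their values were seen. The highest log2 fold changes were 0.58 ± 0.43 for rpl-39, 0.46 ± 0.25 for rpl-23 and 0.45 ± 0.17 for rpl-13 (SE). The lowest were -0.53 ± 0.18 for rpl-25.1, -0.52 ± 0.30 for rps-21 and -0.50 ± 0.18 for rps-12 (SE). In CPM per kb, rpl-25.1 had 29.2, 36.2 and 41.2 in hrde-2, against 49.2, 40.5 and 54.7 in hrde-1, and the libraries overlapped (edgeR adjusted p = 0.419). The gene rpl-13 had 39.2, 54.998 and 32.2 in hrde-2, against 26.1, 28.1 and 32.3 in hrde-1 (edgeR adjusted p = 0.538), and 1 hrde-2 library lay inside the hrde-1 range.

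The coefficient of variation of a member between libraries of a genotype had a median of 11.6% in hrde-2, 11.0% in hrde-1 and 16.5% in wild-type. Counting error alone would give a median near 7.91% in hrde-2, 7.51% in hrde-1 and 9.15% in wild-type. A member had a median count of 128 to 204.5 in 8 of the H3K9me3 libraries and of 33.5 in wild-type replicate 2.

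The IgG libraries gave the background measured without the antibody. In hrde-1 and wild-type IgG the ribosomal protein genes also exceeded other nuclear genes of similar length, and in hrde-2 IgG the interval included 1. The counts of the 76 genes were set over the counts expected from the mean rate of such genes, which unlike the median ratio above gives weight to the few very high genes. In IgG this ratio was 1.45 for hrde-2 (95% counting interval 0.916 to 2.17), 2.39 for hrde-1 (1.94 to 2.91) and 1.63 for wild-type (1.47 to 1.81). In H3K9me3 it was 1.60 ± 0.0649 for hrde-2, 1.57 ± 0.0879 for hrde-1 and 1.49 ± 0.0323 for wild-type (SD, n = 3 each). The mean H3K9me3 ratios of hrde-2 and wild-type were thus inside the IgG interval of the same genotype, and that of hrde-1 was below it. With genes of similar length and GC content, the H3K9me3 ratio was 0.795 ± 0.00943 in hrde-2, 0.742 ± 0.0313 in hrde-1 and 0.722 ± 0.0566 in wild-type (SD, n = 3 each). The IgG ratio was then 0.620 in hrde-2 (0.393 to 0.930), 1.18 in hrde-1 (0.955 to 1.44) and 0.728 in wild-type (0.655 to 0.806). Intervals cover counting error only.

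**Figure D5:**
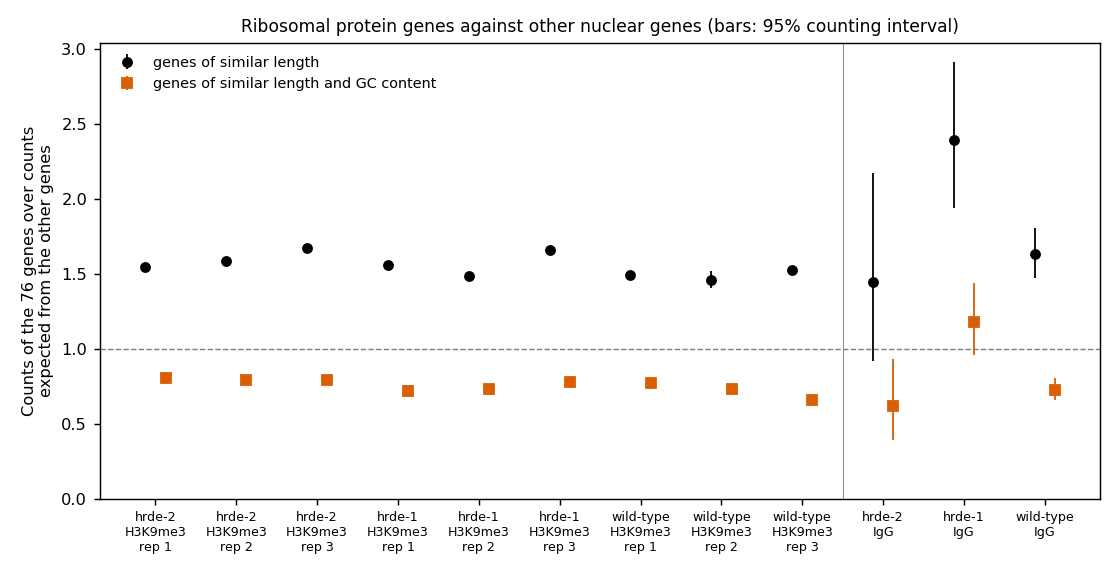
Counts of the 76 ribosomal protein genes in each library over the counts expected from other nuclear genes of similar exon length (black circles) or of similar length and GC content (orange squares), with 95% counting intervals as bars (smaller than the symbol in most H3K9me3 libraries). H3K9me3 libraries lie between 1.46 and 1.67 for similar length and between 0.660 and 0.806 with GC content, and the 3 IgG libraries on the right lie at 1.45, 2.39 and 1.63 for similar length, with wide intervals.

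For single genes the IgG libraries held few counts. The members had 491 IgG counts in all among 285547, with a median of 5 per gene over the 3 libraries and at most 15 in one library. No IgG count was found at 7 members (rpl-6, rpl-18, rpl-23, rpl-36.A, rpl-39, rps-21 and rps-28), which allows up to 3 counts per gene, or 10.5 CPM over the pooled IgG libraries. In the test of H3K9me3 against IgG, 1 member was called higher, against 5.33% of 28657 genes tested, and 2 were called lower, against 1.21%. The median log2 fold change was 0.46 over the members and 0.84 over all genes. With DESeq2 these medians were 0.04 over the members and 0.08 over all genes, and without the wild-type IgG library 2.05 and 6.91. In 74 of the 76 members the 95% interval reached a log2 fold change of 1 or -1, so for most members a difference of this size was not detectable at this depth.

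The member called higher was rpl-18 (edgeR adjusted p = 0.0132), a large-subunit gene on chromosome IV. Its H3K9me3 libraries had, in CPM per kb, 50.4, 47.3 and 51.9 in hrde-2, 45.1, 38.2 and 44.2 in hrde-1 and 45.2, 29.5 and 40.5 in wild-type. It had no count in IgG, and H3K9me3 was 2.96-fold above the floor of 3 counts over the pooled IgG libraries. DESeq2 did not call it (adjusted p = 0.102), nor did the fit without the wild-type IgG library (edgeR adjusted p = 0.161). In the fit without the hrde-1 IgG library 2 members were called higher, in place of 1. Next to rpl-18 by fold change in the main fit were rpl-6 and rpl-23, at 1.55-fold and 1.18-fold of the same floor and not called there. The other members without an IgG count were below that floor, at 0.993 (rps-28), 0.633 (rps-21), 0.525 (rpl-36.A) and 0.396 (rpl-39). The floor does not allow for picking out the genes with an IgG count of 0. The members called lower were rpl-37 and rps-23, whose protein in yeast reaches into the decoding centre. The call of rpl-37 (log2 fold change -2.55 ± 0.80 SE, edgeR adjusted p = 0.0346) rested on 7 counts in hrde-1 IgG, with 0 in the other IgG libraries, and without the hrde-1 IgG library it was gone (edgeR adjusted p = 0.436). For rps-23 (-1.67 ± 0.51 SE, edgeR adjusted p = 0.0275) there were 7 counts in hrde-1 IgG, 8 in wild-type IgG and 0 in hrde-2 IgG, and the call was lost without the hrde-1 IgG library (-1.05, edgeR adjusted p = 0.294) and without the wild-type IgG library (-1.99, edgeR adjusted p = 0.116). The gene rpl-33, next in this direction, had 9 counts in wild-type IgG only and did not pass (-1.64 ± 0.64 SE, edgeR adjusted p = 0.0892), but was called with DESeq2 (adjusted p = 0.0464) and without the hrde-1 IgG library (edgeR adjusted p = 0.0421). Over all alternatives the adjusted p ran from 0.0130 to 0.161 for rpl-18, 0.0149 to 0.436 for rpl-37, 0.00150 to 0.294 for rps-23 and 0.0421 to 0.391 for rpl-33 (edgeR and DESeq2).

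Other genes of the translation machinery were read from the same tables. The 3 genes of the ribosomal stalk (rla-0, rla-1 and rla-2) had a median of 41.5 CPM per kb, and the 6 elongation factor genes (eef) 49.6, against 39.0 for the ribosomal protein genes. The 25 initiation factor genes (eif) had a median of 16.9. Neither exon length nor GC content was matched between these groups. In IgG, as summed counts over summed exon length, the eif genes had 20.0 CPM per kb in hrde-2, 16.8 in hrde-1 and 16.4 in wild-type. The 76 members had 35.1, 54.9 and 33.7 there, the stalk genes 111, 110 and 72.7 and the eef genes 20.2, 57.5 and 43.4. The lower level of the eif genes was thus seen in IgG as well. Over the 3 genotype comparisons none of the stalk or elongation factor genes was called by edgeR, against 0.443% to 0.760% of all genes tested. Of the initiation factor genes 1 was, namely eif-3.I, a subunit of the initiation factor that binds the small subunit. The paper shows this gene as an example of a CSR target. It was higher in hrde-2 against wild-type (log2 fold change 2.96 ± 0.14 SE, edgeR adjusted p = 4.86e-18) and in hrde-2 against hrde-1 (2.88 ± 0.13 SE, edgeR adjusted p = 5.83e-19). The ribosomal protein gene furthest from 0 was rpl-23 at 0.56 in hrde-2 against wild-type and rpl-39 at 0.58 in hrde-2 against hrde-1.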

How the data were processed

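Counts are those the authors deposited, as whole-number fragment counts per gene. They aligned reads to WS258 with bowtie2 2.5.0 and, per the file headers, ran featureCounts 2.0.1 on exons of the canonical gene set, without strand, in paired-end mode, with the options for largest overlap and fractional counting set. Removal of duplicates is not given in the sources used here. For levels, counts were scaled to the library total (CPM) and divided by exon length. A gene without counts may have had up to 3, that is 0.344 to 2.04 CPM in H3K9me3 and 12.8 to 215 in IgG libraries. Counting intervals are exact Poisson intervals at 95%, and intervals and floors cover counting error only.

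Tests used edgeR 4.0.16 in R 4.3.3 (TMM, filterByExpr with a minimum count of 10, quasi-likelihood, no block), with 9 H3K9me3 libraries in one fit for genotypes, and all 12 with genotype as a term for H3K9me3 against IgG. Replicates differed beyond sampling noise (chi-square per degree of freedom 2.67 to 11.26), so none was taken as a repeated library. The code was tested on simulated data. There the fit of H3K9me3 against IgG missed most genes set to a log2 fold change of 1 or -1. DESeq2 1.42.0, other scalings, no filter, a replicate block and leaving out each library were the alternatives. Symbols and gene types came from the Ensembl annotation of WBcel235. Comparison genes were nuclear genes of any type except ribosomal RNA, with an exon length within 10% of the member's or within the members' length range. The limit on GC content was chosen after seeing the data. All 12 libraries and every per-sample column were used. Named members were those called, the 3 highest and 3 lowest rpl and rps genes, the 3 largest and smallest fold changes of each comparison and members sharing a number. The rule for the members uses no measured value, but the members and lists were chosen with earlier results of these data known.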

Additional observations from a re-analysis of the deposited data

How the results depend on the processing

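No member was called in hrde-2 against wild-type or hrde-2 against hrde-1 under any alternative run. In hrde-1 against wild-type, 1 member was called with DESeq2, 1 with the replicate block, and 0 to 1 when single libraries were left out (rpl-27 without wild-type replicate 1, rps-12 without wild-type replicate 2). The replicate numbers did not pair the samples (correlations of same-numbered libraries from -0.06 to 0.14), and the block changed no other member's call. With total-count scaling the members' median log2 fold change was 0.16 in hrde-2 against wild-type and 0.14 in hrde-2 against hrde-1, where the medians of all genes were 0.10 and 0.09. In H3K9me3 against IgG, 1 to 3 members were called when single libraries were left out, the 1 being without the wild-type IgG library. The log2 fold change then ran from -3.77 to 7.54 for rpl-37 (the highest without the hrde-1 IgG library) and from -2.04 to 8.73 for rpl-33 (the highest without the wild-type IgG library), the positive ends being fits to IgG counts of 0 and no bounds. That of rps-29 in hrde-2 against wild-type ran from -0.083 (without hrde-2 replicate 3) to 0.69. The cause was not tested. The ratio to genes of similar length was 2.12 in hrde-1 and 1.98 in wild-type against genes in the same part of the same chromosome. With similar GC content it was 0.945 in hrde-2, 0.915 in hrde-1 and 0.859 in wild-type. Leaving out single libraries gave 1.89 to 1.97 in hrde-2, 1.89 to 2.01 in hrde-1 and 1.73 to 1.82 in wild-type. Over all genes the number called was 142 in hrde-2 against wild-type (50 to 249 over the alternatives), 218 in hrde-1 against wild-type (95 to 328) and 127 in hrde-2 against hrde-1 (76 to 172). For H3K9me3 against IgG it was 1873, and 411 to 1763 over the alternatives. The split of higher to lower calls was 53 and 89 in hrde-2 against wild-type (99 and 34 with total-count scaling) and 60 and 67 in hrde-2 against hrde-1 (85 and 53 with total-count scaling). In H3K9me3 against IgG it was 1526 and 347 (133 and 855 with DESeq2). With ribosomal RNA and mitochondrial genes left out it was 56 and 29 in hrde-2 against hrde-1, and 21 and 160, in place of 54 and 164, in hrde-1 against wild-type. Depth was lowest in IgG, where a member had a median of 5 counts over the 3 IgG libraries, against 33.5 in the smallest H3K9me3 library.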

Other observations

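The nuclear genes of mitochondrial ribosomal proteins (mrpl and mrps), whose products form the separate ribosome of the mitochondrion, were well below the cytosolic ones. The 69 genes had a median of 12.3 H3K9me3 CPM per kb (3.07 to 27.0), below the 39.0 of the 76 cytosolic ribosomal protein genes. As summed counts over summed exon length, they had 13.5 to 14.1 CPM per kb in hrde-2, 11.6 to 13.6 in hrde-1 and 11.03 to 12.6 in wild-type libraries. In IgG they had 14.8 in hrde-2, 22.8 in hrde-1 and 16.5 in wild-type, where the 76 cytosolic genes had 35.1, 54.9 and 33.7. Their lower level was thus seen in IgG as well. Neither exon length nor GC content was matched between these 2 groups of genes. None of the 69 genes was called by edgeR in the 3 genotype comparisons, against 0.443% to 0.760% of all genes tested. Their median log2 fold changes were 0.10 in hrde-2 and 0.10 in hrde-1 against wild-type, and 0.04 in hrde-2 against hrde-1.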
